A study of Mus musculus with 8 samples.

Results

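Expression of 10 genes of heme and iron handling was described in tumor-associated macrophages (TAMs) from melanoma-bearing mice given thiostrepton. The genes were the transcription factor Spic, the heme oxygenase Hmox1, the biliverdin reductases Blvra and Blvrb, and the ferritin subunits Fth1 and Ftl1. The others were the iron exporter Slc40a1 and the iron uptake and transport genes Tfrc, Slc11a1 and Slc11a2. They were picked by name with earlier results of these data known, and are 10 of the 23413 gene symbols in the count table. Their differences between groups are therefore given as a description, with fold changes, errors and overlap between mice, and no p-value is offered as support for them.

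Thiostrepton is a thiopeptide antibiotic that the study tested as an activator of macrophages. B16F10 cells, a mouse melanoma line, were engrafted under the skin of male B6 (C57BL/6) mice at 8 to 10 weeks of age. Mice were dosed on days 6 and 12, and CD45+F4/80+CD11b+Gr-1- cells, the gate used for TAMs, were sorted from the tumors, taken on day 18. The groups were 2 mice given the vehicle DMSO, 4 mice given thiostrepton by intraperitoneal injection (IP) and 2 mice given it at 20 mg/kg by injection beside the tumor (IS). The IP dose of the sequenced mice and the route of the DMSO mice are not given in the sources used here. RNA of each mouse was made into 1 library, and the numbers that name mice (IP 1, DMSO 2) come from the sample labels.

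Macrophages recover iron from the hemoglobin of aged or damaged red blood cells. Heme is opened by heme oxygenase to biliverdin, carbon monoxide and iron, biliverdin reductase turns biliverdin into bilirubin, and the iron is stored in ferritin or leaves the cell through ferroportin. Spic is known as the factor that macrophages of the splenic red pulp need, and in macrophages heme is known to induce it by removing the repressor Bach1. Cells also adjust iron genes after transcription. Iron regulatory proteins bind a short hairpin, the iron-responsive element, which holds back translation when it lies in the 5′ untranslated region and protects the mRNA from decay when it lies in the 3′ untranslated region.

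The element was searched for in GENCODE vM21 transcripts (GRCm38, the assembly called mm10), since it is known to set the translation of some iron genes and the mRNA level of others. A match was a CAGTGN loop, with N any base but G, closed by 5 base pairs with an unpaired C just before the stem. It was found in 4 of the 10 genes, against 222 of 21877 protein-coding genes (1.01%). The 30 bases around each match are shown 5′ to 3′ on the transcript's strand, in DNA letters, with the 6 bases of the loop in capitals. Slc40a1, Fth1 and Ftl1 each held 1 match in exon 1, in the 5′ untranslated region, at chr1:45925464-45925493 (minus strand), chr19:9982732-9982761 (plus) and chr7:45459778-45459807 (minus). Tfrc held 4 matches in exon 19 of 19, in its 3′ untranslated region on the plus strand, at chr16:32631219-32631248, chr16:32631598-32631627, chr16:32631663-32631692 and chr16:32631710-32631739.
Slc40a1: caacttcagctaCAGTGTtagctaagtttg
Fth1: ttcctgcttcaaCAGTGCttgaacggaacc
Ftl1: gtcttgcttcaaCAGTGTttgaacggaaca
Tfrc element 1: aattatcggaagCAGTGCcttccataatta
Tfrc element 2: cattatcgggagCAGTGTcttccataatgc
Tfrc element 3: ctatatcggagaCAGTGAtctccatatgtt
Tfrc element 4: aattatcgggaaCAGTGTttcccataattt

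The matches lay in 1 of 4 coding transcripts of Slc40a1, 4 of 5 of Fth1, 1 of 2 of Ftl1 and 1 of 3 of Tfrc. The counts are per gene, so transcripts with and without the element were not told apart. No other of the 10 genes held these letters and this stem, which says nothing about elements of another form. A second sequence, the core of the antioxidant response element (TGACNNNGC, searched on both strands), was looked for in RefSeq promoters of GRCm38.p6 from 250 bases before to 50 after the start site. Promoter windows were at hand for 7 of the 10 genes, and 1 of the 7, Blvra, held the core, 49 bases before its start on the reverse strand, as GCTCGGTCA. The same core stood in the promoters of 14% of 27025 genes. Hmox1, Slc40a1 and Slc11a2 had no window here. Elements farther from the start site were not looked for, so a window without the core says nothing about them.

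Library totals ran from 14127506 to 17577466 reads on genes. Levels are given as CPM, read counts scaled to the library total after edgeR's TMM adjustment of that total, and 3 counts, taken as the floor of detection, corresponded to 0.168 to 0.217 CPM, which covers counting error only. All 11 macrophage markers looked at were above this floor in every mouse, with summed levels of 12225 to 15243 CPM in DMSO, 14268 to 19608 in IP and 16512 to 17045 in IS mice. Markers of other cells were also present and are given in the same order of groups. Melanoma genes (8 of 8 rows) summed to 627 to 711, 481 to 1809 and 747 to 3001 CPM, and monocyte genes (6 of 6) to 1169 to 2259, 527 to 862 and 456 to 802 CPM. Neutrophil genes (12 rows of 13 listed) summed to 187 to 195, 138 to 191 and 289 to 542 CPM. Platelet genes (5 of 5) summed to 892 to 2428, 666 to 2300 and 826 to 1472 CPM. Most of these reads were of Pf4, at 10410 to 39901 per mouse, while Gp9 and Gp1bb had 0 to 5 reads each. T and NK cell genes summed to 2.08 to 12.1, 1.16 to 15.6 and 25.5 to 37.9 CPM, and dendritic cell genes to 1.96 to 7.83, 2.39 to 7.08 and 9.39 to 30.0 CPM. B cell genes summed to between 9.06 and 29.2 CPM, endothelial genes to between 1.12 and 9.25 CPM, and fibroblast genes to no more than 1.26 CPM in any mouse. Summed neutrophil, T and NK cell, dendritic cell and B cell markers were higher in both IS mice than in all 6 other mice, and their part in the IS values was not tested. In IS 1 most neutrophil reads were of Cxcr2 (2536). There S100a8 (96 reads) and Lcn2 (14) lay within the range of the 6 others, while S100a9 (234) and Ngp (66) were above it. The 2 IS mice differed from each other in melanoma sums, at 3001 and 747 CPM, and in erythroid sums, given below. In sorted bulk samples, fewer cells of a type and less RNA per cell cannot be told apart. Apart from IP 1, the order of the numbers in the sample titles runs with the treatment, so there order and treatment cannot be told apart. The title number of IP 1 stood next to that of IS 1 and away from those of the other IP mice.

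The 10 genes spanned a wide range of levels, and the ferritins were among the most abundant mRNAs of these cells. By mean CPM over the 8 mice, Ftl1 ranked 1st, Fth1 5th and Hmox1 37th of all genes. Per kb of exon, which allows a rough comparison between genes, mean levels were 24878 CPM per kb for Ftl1, 4564 for Fth1 and 1369 for Hmox1. The length was the union of all annotated exons, 1340 bases for Ftl1, 3469 for Fth1 and 9000 for Slc40a1. Exons not in use in these cells lower the value of a gene. In CPM without division by length, Ftl1 averaged 33337 and Fth1 15831. Slc11a1 (122), Blvra (99.0), Blvrb (89.4) and Slc40a1 (35.5 CPM per kb) lay in the middle. Tfrc (12.7), Slc11a2 (9.64) and Spic (7.17 CPM per kb) were lowest, and the ranges of these 3 over the 8 mice overlapped. Every gene had at least 191 counts in every mouse, and all 10 passed the filter on low counts in each comparison.

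**Figure D1:**
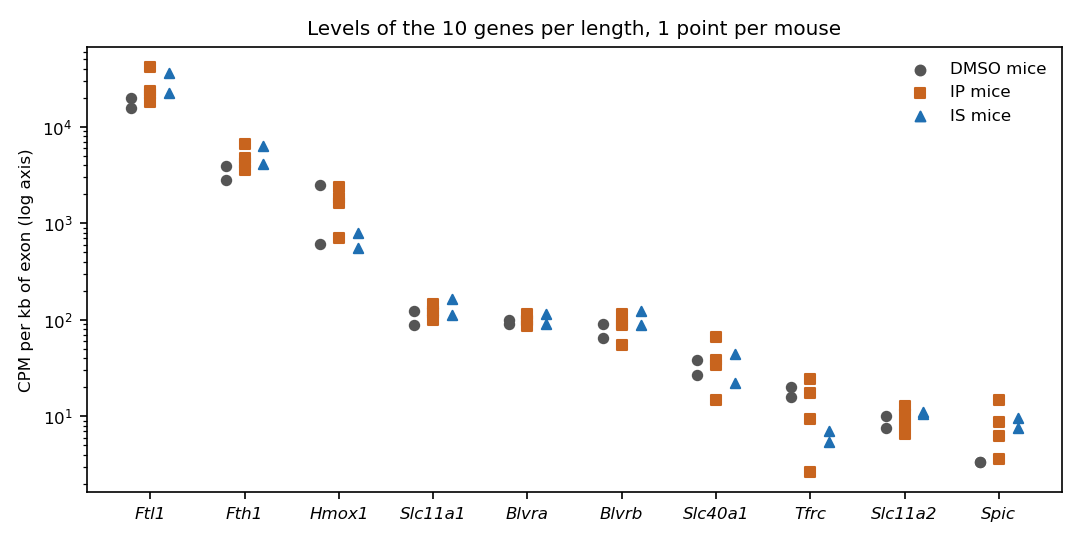
Level of each of the 10 genes in CPM per kb of exon (log axis), 1 point per mouse, with genes ordered by their mean and DMSO, IP and IS mice in 3 colours and shapes. Ftl1 averaged 24878 and Spic 7.17 CPM per kb, and the points of Tfrc spread most, from 2.63 to 24.0 CPM per kb.

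The spread between mice also differed between the genes. From the lowest to the highest of the 8 mice, Tfrc varied 9.15-fold, Slc40a1 4.49-fold, Hmox1 4.42-fold and Spic 4.39-fold in CPM. Ftl1 (2.67-fold), Fth1 (2.36-fold), Blvrb (2.23-fold), Slc11a2 (1.96-fold), Slc11a1 (1.86-fold) and Blvra (1.35-fold) varied less. For Tfrc and Slc40a1, both the lowest and the highest mouse were IP mice.

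Spic (chromosome 10, 88674772 to 88685015, minus strand) had the largest fold change of the 10 genes in IP mice. Its level was 13.01 and 12.99 CPM in the 2 DMSO mice, which carried 191 and 225 reads. The 4 IP mice had 33.5, 24.0, 57.0 and 13.9 CPM. The 2 IS mice had 36.7 and 29.1 CPM. All 6 treated mice were thus above both DMSO mice, but IP 4, on 231 reads, stood above them by a gap within counting error. Mean levels were 13 ± 0.01 CPM (SD, n = 2) in DMSO, 32.1 ± 18.5 (n = 4) in IP and 32.9 ± 5.37 (n = 2) in IS mice. The DMSO SD was below the counting error of 191 and 225 reads, so it says little about the spread between control mice. The fitted log2 fold change over DMSO was 1.31 (SE 0.53) for IP, 2.48-fold, and 1.34 (SE 0.41) for IS, 2.53-fold. Without IP 3, which had the highest level, the IP value was 0.86. Without DMSO 1 or DMSO 2 it stayed at 1.31, although with any 1 of these 3 mice left out Spic was no longer past the criterion used below. In IS mice the value was 1.33 without either DMSO mouse, and then not past the criterion. Summed monocyte markers separated the same groups the other way, at 1169 and 2259 CPM in the DMSO mice and 456 to 862 CPM in the 6 treated mice. Most of these reads were of F13a1, while Ly6c2 had 41 and 56 reads in DMSO and 0 to 391 in treated mice. Their part in the Spic values was not tested.

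Hmox1 (chromosome 8, 75093621 to 75100589, plus strand) encodes heme oxygenase-1, the inducible enzyme that opens the heme ring. The DMSO mice had 1081 and 4340 CPM, a 4.01-fold difference within the control group. The IP mice had 3182, 2833, 4128 and 1239 CPM and the IS mice 1391 and 982 CPM. DMSO 1, IP 4 and both IS mice were low, and DMSO 2 and the other 3 IP mice were high, so neither route was apart from DMSO. Group means were 2710 ± 2304 CPM in DMSO, 2845 ± 1203 in IP and 1186 ± 290 in IS mice (SD, n = 2, 4 and 2). The log2 fold change was 0.07 (SE 0.59) for IP and -1.19 (SE 0.67) for IS. Both values turned on which DMSO mouse was used, since without DMSO 2 they were 1.40 and 0.13, and without DMSO 1 they were -0.60 and -1.88. DESeq2, another count model, put Hmox1 past the criterion in IS mice at -1.17, which the edgeR fit did not.

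The same DMSO mouse also stood out by red blood cell transcripts. Summed erythroid markers (11 rows of 14 listed) were 82.0 and 401 CPM in DMSO mice, 3.54, 90.2, 28.4 and 3.06 in IP mice and 569 and 56.5 in IS mice. DMSO 2 and IS 1 were highest, and of these DMSO 2 had the highest Hmox1 level and IS 1 a low one. Monocyte and platelet sums were also highest in DMSO 2, at 2259 and 2428 CPM, with most of the reads from F13a1 and Pf4. The part of red blood cells or other cells in the Hmox1 levels was not tested.

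Blvrb and Blvra encode the 2 biliverdin reductases. Blvrb (chromosome 7, 27447978 to 27466144, plus strand) was at 181 and 250 CPM in DMSO, 248, 251, 317 and 154 in IP and 343 and 245 in IS mice. The groups overlapped, with log2 fold changes of 0.17 (SE 0.32) for IP and 0.45 (SE 0.35) for IS. Blvra (chromosome 2, 127070665 to 127097084, plus strand) was the steadiest gene of the 10, at 245 and 221 CPM in DMSO, 283, 241, 237 and 210 in IP and 279 and 223 in IS mice. Its log2 fold changes were 0.06 (SE 0.22) and 0.11 (SE 0.30). The ratio of Blvra to Blvrb in CPM, read only across mice, ran from 0.75 in IP 3 to 1.36 in IP 4, and the mice of the 3 groups overlapped.

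The ferritins store iron, with Fth1 (chromosome 19, 9980598 to 9985098, plus strand) giving the heavy subunit, which oxidizes iron, and Ftl1 (chromosome 7, 45457944 to 45459884, minus strand) the light one. Fth1 was at 9815 and 13693 CPM in DMSO, 23196, 16486, 14702 and 12393 in IP and 22108 and 14259 in IS mice. Ftl1 was at 26943 and 20819 CPM in DMSO, 55648, 31701, 24018 and 29631 in IP and 47989 and 29946 in IS mice. For both genes the IS mice were above both DMSO mice, and in IP mice 3 of 4 were. The mouse between the DMSO values was IP 4 for Fth1 and IP 3 for Ftl1. Log2 fold changes were 0.50 (SE 0.32) and 0.63 (SE 0.38) for Fth1, IP and IS, and 0.56 (SE 0.37) and 0.71 (SE 0.38) for Ftl1. None of the 4 values reached a 2-fold change.

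Together the 2 ferritins took 3.82% and 3.68% of all reads on genes, as unadjusted library totals, in DMSO mice, 7.44%, 4.94%, 3.93% and 4.28% in IP mice and 6.73% and 4.15% in IS mice. IP 1 and IS 1 stood apart from the other 6 mice, while the share in every treated mouse was above that of both DMSO mice. IP 1 and IS 1 also had neighbouring title numbers, and the part of sample order in their values was not tested. Without IP 1 the IP value of Ftl1 was 0.25, and without IS 1 the IS value was 0.32. IS 1 also had the highest sums of melanoma (3001 CPM) and erythroid (569 CPM) markers, while IP 1 had 547 and 3.54 CPM. Ferritin reads are uncertain where they also match pseudogene copies. The count table held 1 further row whose symbol begins with Fth or Ftl, Fthl17, with no read in any mouse. Copies under other symbols were not looked for.

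Slc40a1 (chromosome 1, 45908068 to 45926523, minus strand) encodes ferroportin, the iron exporter of mammalian cells. It was at 342 and 242 CPM in DMSO, 132, 592, 348 and 303 in IP and 197 and 401 in IS mice. IP mice held both ends of the range, and both routes overlapped with DMSO. The log2 fold change was 0.23 (SE 0.50) for IP and 0.04 (SE 0.44) for IS. IP 1 and IS 1, the 2 mice with the highest ferritin, had the lowest Slc40a1.

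Tfrc (chromosome 16, 32608920 to 32632794, plus strand) encodes the transferrin receptor, through which cells take up transferrin-bound iron. It was at 97.9 and 123 CPM in DMSO mice, on 1437 and 2125 reads. The IP mice had 16.2, 107, 58.2 and 149 CPM. The IS mice had 33.0 and 43.9 CPM, on 501 and 608 reads. Both IS mice were below both DMSO mice, while IP mice were scattered from the lowest to the highest of all 8. Group means were 110 ± 17.6 CPM in DMSO, 82.4 ± 57.6 in IP and 38.5 ± 7.71 in IS mice (SD, n = 2, 4 and 2). The log2 fold change was -1.52 (SE 0.34) for IS, a 2.86-fold lower level, and -0.43 (SE 0.66) for IP. The IS value stayed between -1.76 and -1.34 over every alternative, although without DMSO 2 (-1.35), or with all 3 groups in 1 fit (-1.49), the gene was no longer past the criterion. Without IP 1 the IP value was -0.09.

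The remaining iron uptake and transport genes were not past the criterion. Slc11a1 (chromosome 1, 74375195 to 74386062, plus strand), known as Nramp1, was at 460 and 326 CPM in DMSO, 367, 454, 542 and 432 in IP and 415 and 607 in IS mice. Slc11a2 (chromosome 15, 100387898 to 100425072, minus strand), known as DMT1 and moving iron across endosomal and plasma membranes, was at 63.3 and 47.4 CPM in DMSO, 41.7, 66.7, 52.6 and 81.7 in IP and 66.9 and 69.4 in IS mice. Slc11a1 overlapped between groups. Slc11a2 overlapped between IP and DMSO, while both IS mice were above both DMSO mice. Log2 fold changes were 0.19 (SE 0.26) and 0.38 (SE 0.35) for Slc11a1, and 0.12 (SE 0.30) and 0.30 (SE 0.33) for Slc11a2, IP and IS.

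**Figure D2:**
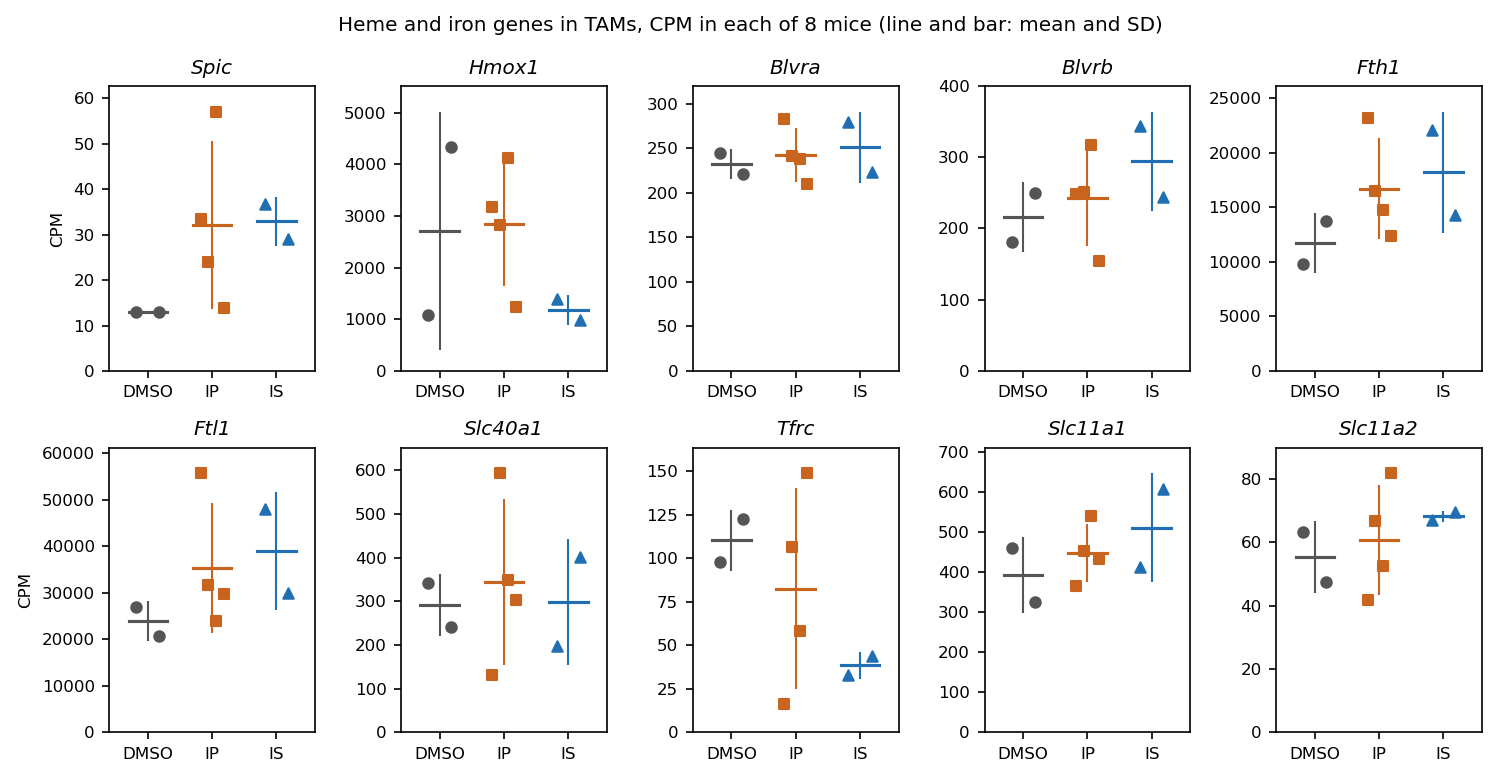
CPM of each of the 10 genes, 1 panel per gene with its own axis from 0, in the 2 DMSO, 4 IP and 2 IS mice (points), with the group mean (line) and SD (bar). Spic was at 13 CPM in both DMSO mice and at 13.9 to 57.0 CPM in treated mice, with IP 4 close to DMSO. Tfrc was at 33.0 and 43.9 CPM in IS mice against 97.9 and 123 in DMSO mice. Hmox1 was split within the DMSO group, at 1081 and 4340 CPM.

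Counted over the 10 genes, few differences passed the study's criterion, at least a 2-fold change and an unadjusted P under 0.05, here from edgeR's quasi-likelihood test. In IP mice 1 of 10 was higher (Spic) and 0 lower, where 1.53% of the 12174 genes tested were higher and 0.468% lower. In IS mice 1 of 10 was higher (Spic) and 1 lower (Tfrc), where 2.29% of 11680 genes were higher and 2.77% lower (268 and 323 genes, or 196 and 429 under scaling by library size alone). The genes were chosen with these contrasts known, so nothing is read from the counts. With P adjusted by Benjamini-Hochberg over the whole table, 0 genes, the 10 included, had an adjusted p under 0.05 in edgeR's quasi-likelihood test of either route. At an unadjusted P under 0.05 there were 418 genes (3.43%) for IP and 632 (5.41%) for IS. DESeq2 and edgeR's likelihood ratio test put Tfrc under an adjusted p of 0.05 in IS mice, among 107 and 179 genes, and none of the 10 in IP mice, among 26 and 10 genes. In the quasi-likelihood test the adjusted p of Tfrc in IS mice was 0.747. Since Tfrc was picked with these contrasts known, none of these values is offered as support.

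Groups that did not overlap were more common among all genes than the criterion. In IP mice 1 of the 10 genes, Spic, was above both DMSO mice in 4 of 4 mice, and 0 were below, against 7.29% and 6.88% of all genes tested. For IP 4 the gap in Spic was within counting error. In IS mice 4 of the 10 (Spic, Fth1, Ftl1 and Slc11a2) were above both DMSO mice in 2 of 2 mice and 1 (Tfrc) was below, against 16% and 18.5% of all genes. For 1 gene, the smallest p an exact two-sided permutation test allows is 0.133 for IP against DMSO and 0.333 for IS against DMSO. The median log2 fold change of the 10 genes was 0.18 for IP and 0.34 for IS, beside 0.02 over all genes tested in each. Both routes were compared with the same 2 DMSO mice, so a likeness of the 2 columns of values is partly given by the design.

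**Figure D3:**
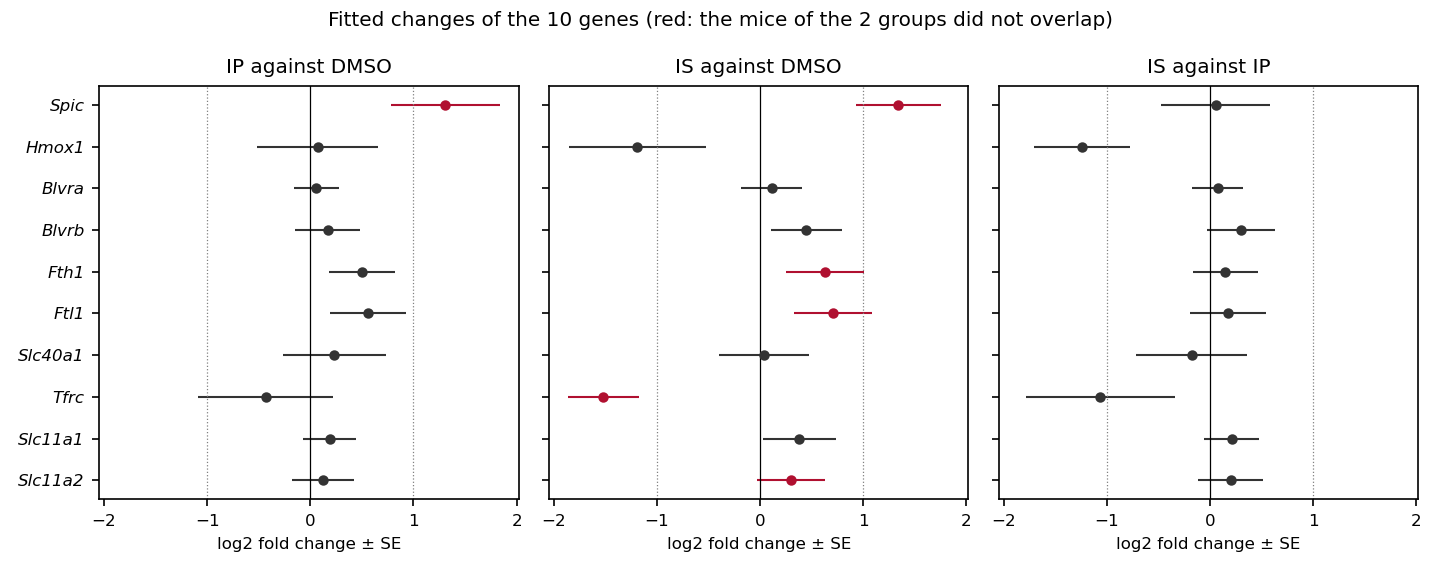
Fitted log2 fold change (points) and SE (bars) of the 10 genes for IP against DMSO, IS against DMSO and IS against IP, with dotted lines at a 2-fold change and red for genes whose mice did not overlap between the groups. Spic lay at 1.31 and 1.34 over DMSO and at 0.06 between routes, Tfrc at -0.43, -1.52 and -1.06, and Hmox1 at 0.07, -1.19 and -1.24.

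The routes were also set against each other directly, IS against IP, which asks where paratumor and systemic dosing left different levels. Hmox1 was lower in IS mice, with a log2 fold change of -1.24 (SE 0.46), 2.36-fold. The 2 IS mice had 1391 and 982 CPM against 1239 to 4128 in the IP mice, so 1 IS mouse was below all IP mice and the other lay just above IP 4. Over all alternatives the value ran from -1.53 to -1.01, but Hmox1 was not past the criterion without IS 2 (-1.01), without IP 1 (-1.18) or with all 3 groups in 1 fit (-1.24). Tfrc was at -1.06 (SE 0.72), with IP mice on both sides of the IS mice, and without IP 1, the lowest of all, the value was -1.40 and Tfrc was past the criterion. Spic was at 0.06 (SE 0.53), and the other 7 genes lay between -0.18 and 0.30. Past the criterion were 0 higher and 1 lower (Hmox1) of the 10 genes, where 2.41% of the 12206 genes tested were higher and 4.64% lower. None of the 10 genes was free of overlap between the routes, against 7.46% of genes higher and 11.1% lower. As for the comparisons with DMSO, 0 genes had an adjusted p under 0.05 in the quasi-likelihood test, with 1049 (8.59%) at an unadjusted P under 0.05. DESeq2 and the likelihood ratio test gave 234 and 265 genes, none of them among the 10. The results of the study, not its methods, call the 20 mg/kg given beside the tumor lower than the doses used for IP injection. Route and dose therefore cannot be told apart.

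Within single mice, some of the 10 genes went together. Pearson correlations of log2 CPM were taken over 8 mice for all 45 pairs, as a description, since the mice share 3 treatments and the genes share a library and its scaling. Ftl1 and Blvra (r = 0.81), Fth1 and Ftl1 (0.80) and Spic and Blvrb (0.78) were highest. Tfrc went against Blvra (-0.79), Ftl1 (-0.79), Fth1 (-0.78) and Spic (-0.69), and Hmox1 against Slc11a2 (-0.76). After each group's mean was taken off, Fth1 and Ftl1 were at 0.70, Spic and Blvrb at 0.85, Ftl1 and Tfrc at -0.72 and Fth1 and Tfrc at -0.70. Other pairs moved more with this step, and Hmox1 and Blvrb, at 0.44 over all mice, became the highest at 0.89. Tfrc and Slc11a2 went from 0.48 to 0.86, Spic and Hmox1 from 0.27 to 0.65 and Fth1 and Slc11a1 from -0.28 to -0.80. IP 1 had the lowest Tfrc, 16.2 CPM, and the highest ferritin sum, 78844 CPM, and IS 1 was second on both, at 33.0 and 70097 CPM. Tfrc was also low in IS 2 and IP 3, whose ferritin sums of 44205 and 38719 CPM were close to those of IP 4 (42024) and DMSO 1 (36758), where Tfrc was high. In the 6 mice other than IP 1 and IS 1, ferritin sums lay between 34513 and 48187 CPM and Tfrc between 43.9 and 149 CPM.

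**Figure D4:**
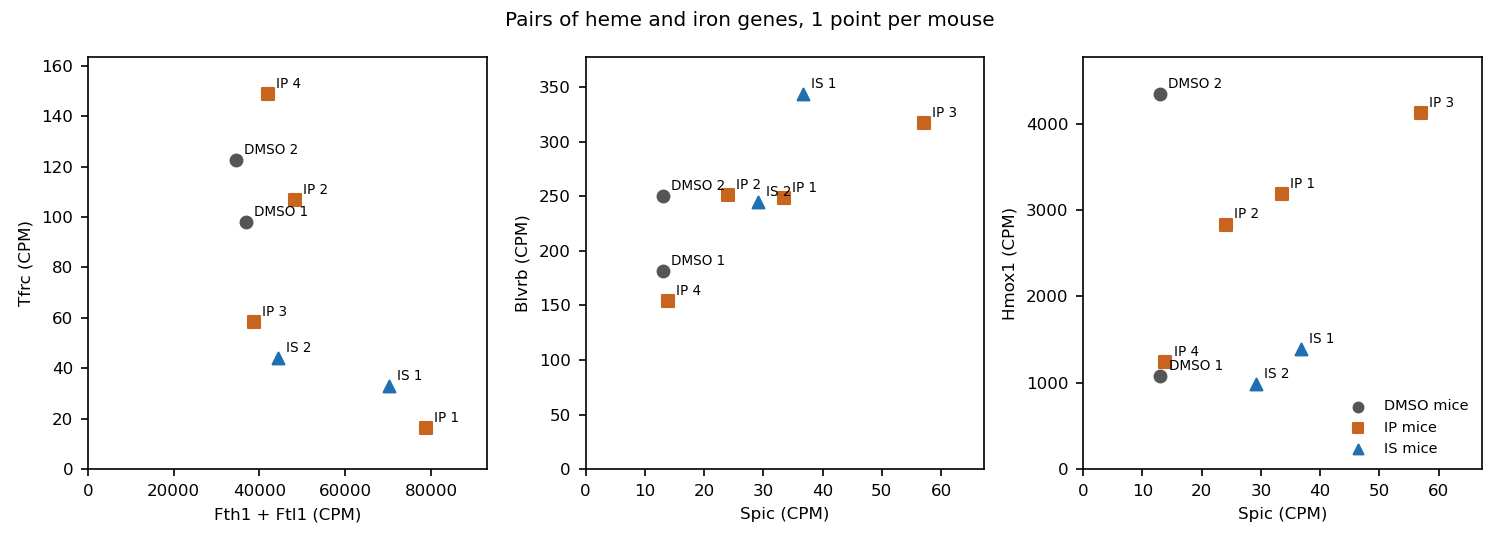
Pairs of genes in CPM, 1 labelled point per mouse on axes from 0: summed ferritin (Fth1 + Ftl1) against Tfrc, Spic against Blvrb, and Spic against Hmox1. IP 1 and IS 1 combined the highest ferritin with the lowest Tfrc, and IS mice had a lower Hmox1 for their Spic than IP mice.

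The last pair of genes separated the routes. Hmox1 over Spic, a ratio of CPM read only across mice, was 83.1 and 334 in DMSO mice, 95.0, 118, 72.4 and 89.4 in IP mice and 37.9 and 33.7 in IS mice. Both IS mice were below every other mouse. The ratio of the exporter to the importer, Slc40a1 over Tfrc, was 3.50 and 1.97 in DMSO mice, 8.12, 5.55, 5.98 and 2.04 in IP mice and 5.98 and 9.12 in IS mice. Both IS mice and 3 of 4 IP mice were above the 2 DMSO mice, with IP 4 between them. These ratios were chosen after the values were known. Fth1 over Ftl1 ran from 0.36 in DMSO 1 to 0.66 in DMSO 2, with all treated mice in between, and Slc11a1 over Slc11a2 from 5.29 to 10.3, both in IP mice.

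The genes most like a member were sought among the 9324 genes that averaged 5 CPM or more, by Pearson correlation of log2 CPM over the 8 mice. For Spic they were AF251705 (r = 0.94), the complement gene C1qa (0.89), Gm5150, Bcl2a1b and Acin1 (0.86 each). For Hmox1 they were Tuba1c (0.97), Ap2s1 (0.96), Cops5, Eif3i and Gtf2h4 (0.95 each). For Tfrc, added after its values were seen, they were Galnt4 (0.99), E2f6 and Mthfd1 (0.97 each), Vars and Vps52 (0.96 each). The points share 3 treatments and the scaling of each library, and nothing is read from them about shared function.

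Other genes of heme and iron handling were taken from 8 functional lists with 92 genes, of which 90 had a row and 77, 77 and 78 were tested for IP, IS and IS against IP. Past the criterion were 1 higher and 0 lower in IP mice, 2 higher and 2 lower in IS mice, and 2 higher and 4 lower in IS against IP. Those shares, 1.30%, 5.19% and 7.69% of the genes tested, stand beside 2%, 5.06% and 7.05% of all genes tested. Some genes below are named as free of overlap between groups. Of all genes tested, 6.88%, 18.5% and 11.1% were lower without overlap in the same 3 comparisons, and 7.29%, 16% and 7.46% higher. The share of all genes apart in 2 comparisons at once was not counted. Their median log2 fold changes were 0.00, 0.04 and -0.01, and 0 had an adjusted p under 0.05 in edgeR's quasi-likelihood test, with 2, 5 and 7 at an unadjusted P under 0.05. DESeq2 gave 0, 2 and 3 and the likelihood ratio test 0, 1 and 3 genes of these lists with an adjusted p under 0.05.

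Among receptors that take up heme, Cd163, the scavenger receptor for hemoglobin bound to haptoglobin, was lower in IS mice. It was at 29.1 and 65.0 CPM in DMSO, 156, 51.9, 41.5 and 69.7 in IP and 11.6 and 6.07 in IS mice. Both IS mice were below all 6 others, with a log2 fold change of -2.41 (SE 0.60) against DMSO and -3.14 (SE 0.66) against IP. Without DMSO 2 the former was -1.73 and no longer past the criterion. Lrp1, the receptor for hemopexin-bound heme and many other ligands, was lower in IS than in IP mice, by -1.03 (SE 0.40) on the log2 scale, with IS mice at 152 and 269 CPM below the IP mice at 278 to 658. It was not past the criterion without IP 1 (-0.76), IP 4 (-1.05) or IS 1 (-0.69). Against DMSO, Lrp1 was at 0.82 (SE 0.41) for IP, 1.44 and past the criterion without DMSO 2, and at -0.22 (SE 0.48) for IS. Of the 10 tested genes of heme uptake, transport and release, 0 were past the criterion in IP mice and 1, Cd163, in IS mice.

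No gene of heme synthesis was past the criterion against DMSO with all mice in the fit. Alas1, which makes the first intermediate of heme synthesis, was higher in IS than in IP mice, at 1.0 (SE 0.38) on the log2 scale. The higher level was in 1 mouse, with 92.7 CPM in IS 1 and 260 in IS 2 against 77.1 to 112 in IP mice and 127 and 80.0 in DMSO mice, and without IS 2 the value was 0.08. Without IP 1, IP 2 or IP 3 it was 0.94 to 0.97, under the 2-fold limit, and against DMSO it was 0.78 (SE 0.56) for IS and -0.21 (SE 0.26) for IP. The IS value against DMSO was 1.33 and past the criterion without IS 1, and -0.18 without IS 2. Abcb10, a mitochondrial transporter of the same list, was at 14.2 and 9.58 CPM in DMSO, 4.23 to 10.3 in IP and 0.13 and 15.6 in IS mice, where IS 1 held 2 reads. Its log2 fold changes were -0.56 (SE 0.41) and -0.59 (SE 1.59).

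Among 12 genes listed as heme-responsive regulators none passed the criterion. The list was Bach1, Bach2, Nfe2l2, Keap1, Maff, Mafg, Mafk, Nr1d1, Nr1d2, Eif2ak1, Sfpi1 and Irf8, whether or not the protein itself binds heme. A positive log2 fold change was seen for 11 in IP and 10 in IS mice, against 39 and 42 of the 77 tested genes of all lists. Their medians were 0.28 and 0.31, beside 0.02 over all genes tested. Both routes share the same DMSO mice, and the list holds the repressor Bach1 beside Nfe2l2, so nothing is read from these counts. Mafk, a small Maf protein that pairs with Bach1 or Nrf2, was at 40.3 and 31.6 CPM in DMSO and 91.1, 49.9, 40.8 and 86.3 in IP mice, all above DMSO, at 0.89 (SE 0.37), and past the criterion without IP 2 (1.02) or IP 3 (1.06). Its IS mice had 40.1 and 75.0 CPM, at 0.68 (SE 0.43). Nfe2l2, the gene of Nrf2, which drives Hmox1 and ferritin genes, was at 199 and 195 CPM in DMSO, 199 to 216 in IP and 310 and 427 in IS mice. Both IS mice were above all 6 others, at 0.90 (SE 0.31) against DMSO and 0.85 (SE 0.23) against IP, under the 2-fold limit, which the former passed without IS 1 (1.11). Bach1 was at 0.66 and 0.37 for IP and IS.

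The list of systemic iron proteins held Lcn2 and Ltf, which bind siderophores and iron and are granule proteins of neutrophils. Both also stand in the neutrophil marker list. Lcn2 had 4 and 10 reads in DMSO mice, 102, 13, 24 and 27 in IP and 14 and 276 in IS mice, and was past the criterion for both routes, at 2.54 (SE 1.05) and 4.58 (SE 1.60). Ltf had 5 and 0 reads in DMSO, 14, 0, 3 and 1 in IP and 24 and 389 in IS mice, and was past it for IS against DMSO and against IP. The high mouse in each case was IS 2, in which the neutrophil markers summed to 542 CPM against 138 to 289 in the other 7 mice. With reads this few, fold changes depend on the prior count of the fit. Lcn2 was not past the criterion in IP mice without IP 1 (1.52), DMSO 1 (2.13) or DMSO 2 (3.19), nor in IS mice without IS 2 (1.06) or DMSO 1 (4.15), and Ltf was not past it against IP without IS 2 (2.50).

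The lists of iron sensing and iron-sulfur cluster assembly held 1 gene each past the criterion. Epas1, which encodes HIF-2alpha, was at 1.77 and 3.81 CPM in DMSO, 3.64 to 9.67 in IP and 1.32 and 1.16 in IS mice, and was lower in IS than in IP mice at -2.24 (SE 0.74). Mms19, which passes iron-sulfur clusters to proteins of DNA metabolism, was at 40.2 and 41.9 CPM in DMSO, 42.2 to 62.6 in IP and 20.9 and 11.0 in IS mice. Both IS mice were below all others, at -1.36 (SE 0.46) against DMSO and -1.57 (SE 0.38) against IP. The value against DMSO was not past the criterion without DMSO 1 (-1.40), DMSO 2 (-1.34) or IS 2 (-1.0). Isca1, another assembly gene, was below both DMSO mice in all 6 treated mice, at 69.6 and 76.9 CPM against 35.4 to 62.7 in IP and 49.2 and 44.9 in IS mice. Its log2 fold changes were -0.53 (SE 0.28) and -0.64 (SE 0.31) and did not pass the criterion. Of all genes tested, 6.88% were likewise below DMSO without overlap for IP and 18.5% for IS.

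Genes of iron uptake and of red pulp macrophages held no gene past the criterion. Snx3, which recycles the transferrin receptor, was at -0.42 (SE 0.25) and -0.44 (SE 0.32). Slc39a14, an importer of iron not bound to transferrin, was at -0.00 (SE 0.30) and 0.88 (SE 0.51), with 20.1 and 44.6 CPM in IS mice against 16.5 and 18.7 in DMSO, and was at 1.33 and past the criterion for IS without IS 1. Of the red pulp genes, 4 of 6 were tested. Vcam1 was at 0.57 (SE 0.45) and 0.13 (SE 0.36), with 839 CPM in IP 3, which also had the highest Spic, against 252 to 420 CPM in the other 7 mice. Cd5l, a scavenger receptor family protein, was at 0.64 (SE 0.63) and 1.08 (SE 0.50), with 15.5 and 23.1 CPM in IS mice above 8.72 and 9.58 in DMSO, and was past the criterion without IS 1 (1.33).

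**Figure D5:**
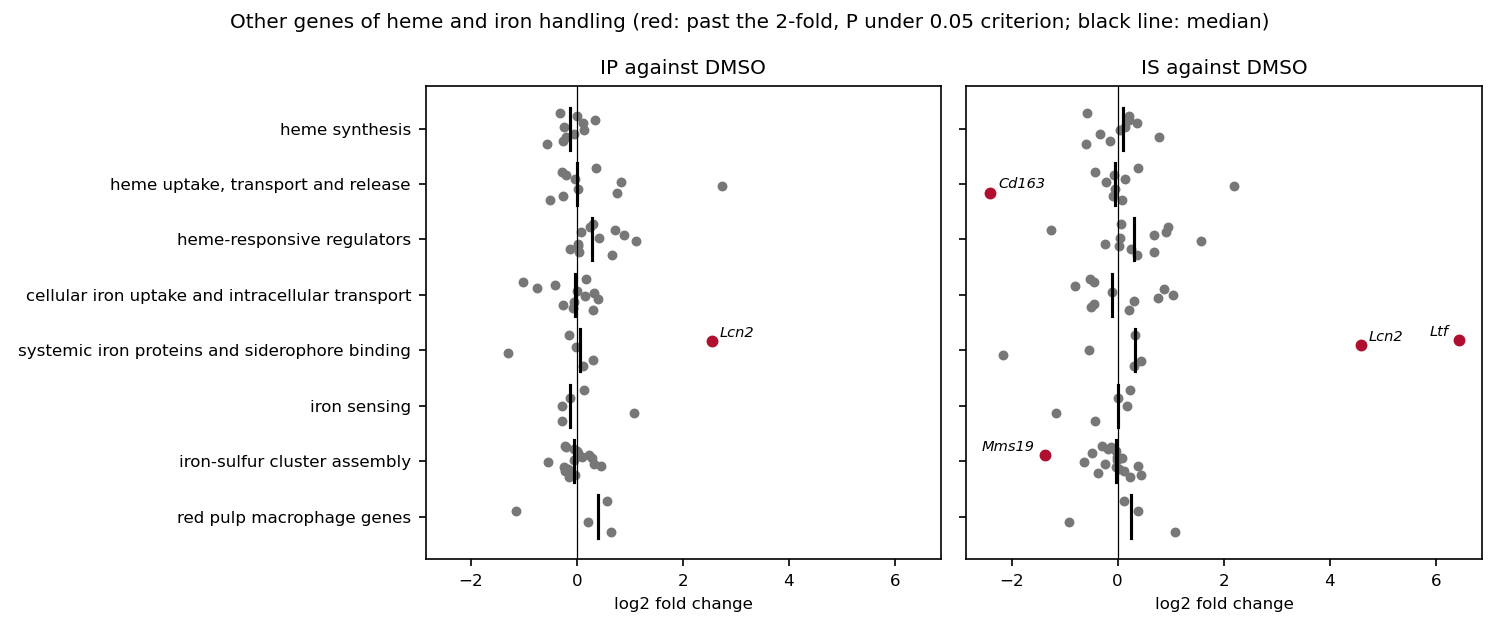
Log2 fold changes of the other genes of heme and iron handling (1 point per gene, by functional list) for IP against DMSO and IS against DMSO, with the median of each list as a black line and genes past the criterion in red with their names. List medians lay between -0.14 and 0.39 for IP and between -0.11 and 0.32 for IS, and the genes past the criterion were Lcn2 for IP and Lcn2, Ltf, Cd163 and Mms19 for IS.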

How the data were processed

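RNA-seq counts of TAMs from 8 mice were used, 2 DMSO, 4 IP and 2 IS, grouped by the treatment in the sample labels. The authors deposited raw counts per gene symbol, whole numbers without normalization. The study's methods name bowtie2 2.2.3 and RSEM 1.2.15, while the submitters' processing notes name TopHat2 and edgeR, both with mm10, so the aligner behind the table is not settled. Reads that fit several genes can be split differently by the 2 routes. The 10 genes and all lists of genes were chosen with earlier results of these data known.

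The analysis used edgeR 4.0.16 (R 4.3.3), with DESeq2 1.42.0 as an alternative. Each pair of groups was fitted alone after filterByExpr (minimum count 10, minimum total count 15) and TMM scaling, with the two-sided quasi-likelihood test and Benjamini-Hochberg adjustment over all genes tested. SEs were taken as the absolute log2 fold change over the root of the F statistic. CPM used TMM-adjusted totals, and log2 CPM a prior count of 2. The procedure was tested on simulated data. Library totals were 14127506, 16222188 (DMSO), 16761905, 15956516, 17577466, 16346845 (IP), 15812025 and 14758231 (IS). The study states that treated and control mice were housed together, came from a shared colony and were randomized to treatment. No source says which of the sequenced mice shared a cage or day of sorting, so p-values measure the spread between these mice. Gene positions and exon lengths (the union of all exons) came from GENCODE vM21, which held 21777 of the 23413 symbols (93%). Exon length includes untranslated regions and exons of other transcripts that may not be in use in these cells.

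All 10 genes are named. From the other lists, named genes were those past the criterion in any comparison and, for each route against DMSO, the gene with the smallest P and a mean of at least 1 CPM. The 5 genes most like Spic and Hmox1 were named by correlation. Bach1 and the list for Tfrc were added after values were seen. As alternatives, genes were left unfiltered or filtered at 1 CPM in 2 mice, counts were scaled by RLE or by library size alone, and the test was DESeq2 or the likelihood ratio test of edgeR. Others were 1 fit of the 3 groups, a replicate block, and each mouse left out in turn.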

Additional observations from a re-analysis of the deposited data

How the results depend on the processing

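Of the 10 genes, the number past the criterion in IP mice was 1 and stayed 1 with other filters, scalings and tests, and was 2 (Spic and Tfrc) with the replicate block, which uses IP 1 and 2 only. In IS mice it was 2, and 1 with all 3 groups in 1 fit, 1 with the replicate block (Tfrc), and 3 with DESeq2. In IS against IP mice it was 1, and 0 with all 3 groups in 1 fit. Leaving out single mice gave 0 to 1, 0 to 2 and 0 to 1 genes. The other heme and iron genes past the criterion numbered 1, 4 and 6. With all 3 groups in 1 fit the IP number was 0, and with the replicate block the IS against IP number was 3. Leaving out single mice gave 0 to 4, 2 to 20 and 5 to 17 of them, highest without IS 1 in the latter 2. Over all genes, the IS numbers of 591 and 860 became 2989 and 2003 without IS 1 and 3432 and 2115 without IS 2, where the lone IS mouse is assumed to vary like the other group. Without DMSO 1 or DMSO 2, 206 and 113 genes passed for IS. Alas1 in IS mice, at 0.78, was 1.33 without IS 1 and turned to -0.18 without IS 2.

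Same-numbered mice share only a number, so the block was kept out of the text's values. Their deviations from group means correlated between -0.144 and 0.0746. For IS against DMSO (-0.144), each group's 2 deviations are mirror images, so that value cannot show whether mice were paired. The pairing with the DMSO numbers crossed, chosen after seeing the data, left 2 of the 10 genes and 3 of the others past the criterion in IS mice.

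Under scaling by library size alone, the median log2 fold change of all genes was -0.05, -0.13 and -0.08 for IP, IS and IS against IP, and Hmox1 in IP mice was at -0.02, against 0.07. Spic and Tfrc kept their direction in each comparison with DMSO. Signs that changed in IP mice under some alternative were those of Hmox1, Slc40a1, Slc11a1, Slc11a2, Blvrb and Blvra, and in IS mice those of Hmox1, Slc40a1 and Blvra. The cause of these shifts was not tested. Each of the 10 genes had at least 191 reads in every mouse, and 2 of the 3 groups held 2 mice.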
